A study of Mus musculus with 8 samples.

Results

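The genes described here are named for proteins of the cytosolic ribosome. They were chosen by name, as gene rows called Rpl or Rps with a number and, in some, a letter after it, and by a minimum mean count of 10 in the table deposited for the series. 81 genes met the rule among 17597 gene rows, 49 named for the large subunit and 32 for the small subunit. Every row whose name matched also passed the minimum, and the lowest of them, Rpl3l, had a mean count of 28.1. Of the 81 genes, 80 are annotated as protein-coding, and Rps4l is annotated as a transcribed processed pseudogene, an intronless copy of a spliced transcript.

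The 8 libraries were made from mouse embryonic stem cells and form 2 groups of 4, one untreated and one treated with the small molecule dTAG-13 for 26 hours. Both groups carry METTL3, the catalytic subunit of the writer of N6-methyladenosine (m6A) on RNA, fused to the degron FKBP12F36V, through which dTAG-13 leads to destruction of the protein. Each group holds 2 libraries of clone C3 and 2 of clone H5, both of Cast x 129S background and both with a doxycycline-responsive TetOn promoter in place of the endogenous Xist promoter. The labels place that promoter on the 129S allele, whereas the study's text describes induction from the castaneus X chromosome, and no doxycycline was given to any library. Each line is 1 clone, and the cells were grown on inactivated fibroblast feeders. What was analysed is the authors' average of normalised counts per gene over all 8 libraries (each library's reads scaled by its size factor), which is the mean count in what follows. The table gives no value per library, so the levels carry no SD, the groups were not compared, and no order of neighbouring levels was set against replicate spread.

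The cytosolic ribosome is built from a small subunit, which reads the messenger RNA, and a large subunit, which joins amino acids. Each subunit needs its proteins in near equal amounts, since most are present once per ribosome, and transcripts of these genes rank among the most abundant of growing cells. In mammals many of the genes begin transcription at a cytidine followed by a stretch of pyrimidines, a feature through which their translation responds to growth signals. They have also left many intronless copies in the genome, and several have a second functional gene, some of which are best known from testis or muscle.

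The sequences shown first are coding sequences of paralogs, which reads must tell apart. In each set the capitals mark bases that differ from the first gene of the set, and positions are counted from the first base of the start codon. Rps27 and Rps27l are given in full without the stop codon. Rps27 lies at chr3:90212522-90213651 on the minus strand and Rps27l at chr9:66946086-66949516 on the plus strand (mm10), and the 2 sequences differ at 60 of 252 bases.
Rps27: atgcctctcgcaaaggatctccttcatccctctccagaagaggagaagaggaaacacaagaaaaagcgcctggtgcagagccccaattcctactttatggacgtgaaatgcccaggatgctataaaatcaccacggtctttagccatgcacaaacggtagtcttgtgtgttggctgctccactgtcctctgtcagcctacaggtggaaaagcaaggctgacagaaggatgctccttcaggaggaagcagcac
Rps27l: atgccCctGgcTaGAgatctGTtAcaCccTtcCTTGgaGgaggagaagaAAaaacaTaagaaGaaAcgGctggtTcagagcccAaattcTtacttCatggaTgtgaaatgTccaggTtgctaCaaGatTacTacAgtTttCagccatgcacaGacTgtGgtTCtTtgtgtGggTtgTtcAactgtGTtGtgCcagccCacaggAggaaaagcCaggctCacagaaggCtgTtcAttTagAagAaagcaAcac

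Rpl39, at chrX:37082520-37085402, and Rpl39l, at chr16:10170226-10174911, encode the shortest pair of proteins compared and are also given in full. They differ at 23 of 153 bases.
Rpl39: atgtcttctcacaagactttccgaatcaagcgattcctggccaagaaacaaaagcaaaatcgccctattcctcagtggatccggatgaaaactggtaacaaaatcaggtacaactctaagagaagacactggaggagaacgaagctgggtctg
Rpl39l: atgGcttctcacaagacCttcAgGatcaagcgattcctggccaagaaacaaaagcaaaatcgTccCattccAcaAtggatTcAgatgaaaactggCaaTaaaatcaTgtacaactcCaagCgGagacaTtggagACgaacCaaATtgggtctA

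Rpl10, at chrX:74270812-74273135, and the intronless Rpl10l, at chr12:66283379-66284401, differ at 98 of 642 coding bases. The first 120 bases are shown, of which 18 differ.
Rpl10: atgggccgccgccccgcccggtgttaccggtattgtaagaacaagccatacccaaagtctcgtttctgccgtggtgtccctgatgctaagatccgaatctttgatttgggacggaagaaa
Rpl10l: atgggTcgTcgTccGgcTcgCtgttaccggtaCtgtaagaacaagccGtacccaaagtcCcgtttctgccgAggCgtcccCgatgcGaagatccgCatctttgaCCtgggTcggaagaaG

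Rpl36a, at chrX:134585654-134588062, and Rpl36al, at chr12:69182731-69184083, differ at 39 of 318 coding bases. Within the first 120 bases, shown here, 18 differ.
Rpl36a: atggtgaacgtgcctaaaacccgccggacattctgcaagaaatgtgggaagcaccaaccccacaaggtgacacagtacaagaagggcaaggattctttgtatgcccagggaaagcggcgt
Rpl36al: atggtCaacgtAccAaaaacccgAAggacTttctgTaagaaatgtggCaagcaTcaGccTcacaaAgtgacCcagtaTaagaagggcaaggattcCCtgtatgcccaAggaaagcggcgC

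Although the coding sequences of a pair are up to 87.7% identical (Rpl36al with Rpl36a), no stretch of 81 bases, the read length, was shared within any of the 8 pairs examined. A read of that length without error thus differs between the genes of a pair at 1 or more bases.

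The 81 genes held 799635 of the summed mean counts of the gene rows, or 5.49%, while they make up 0.596% of the 13590 genes that reach the same minimum of 10. The large subunit accounted for 3.37% and the small subunit for 2.11%. By comparison, 77 genes of the mitochondrial ribosome together held 0.567%, and 37 genes of the proteasome, the protease complex that degrades ubiquitin-tagged proteins, held 0.799%. Among the 100 genes with the highest mean counts, 19 were members. The highest mean counts belonged to Rps2 (29100), Rpl5 (27539), Rps4x (25044), Rpl4 (23547) and Rpl3 (21121). Rpl5 binds the free smallest ribosomal RNA with Rpl11, and Rpl4 lines the tunnel through which the new protein leaves the ribosome. The lowest belonged to Rpl3l (28.1), Rpl39l (261), Rpl22l1 (866), Rpl10l (1044) and Rps27 (1870), so 4 of the 5 were paralogs named for another member.

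To compare genes with each other, the mean count was divided by the length of the principal annotated transcript. The median of the 81 genes was 9903 mean counts per kb of transcript, against 127 for the 12531 protein-coding genes that reach the minimum and have a position in the annotation, the genes compared below, a 78.1-fold difference. The 81 genes were 13.8-fold above the median of the mitochondrial ribosome (718 per kb) and 4.71-fold above that of the proteasome (2103 per kb). Of the 81 genes, 76 (93.8%) lay above the 95th percentile of protein-coding genes and 64 (79.0%) above the 99th percentile. The 5 genes below the 95th percentile were Rpl3l, Rpl39l, Rpl10l, Rpl22l1 and Rps15a, the last of which is discussed with its transcript length below.

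**Figure D1:**
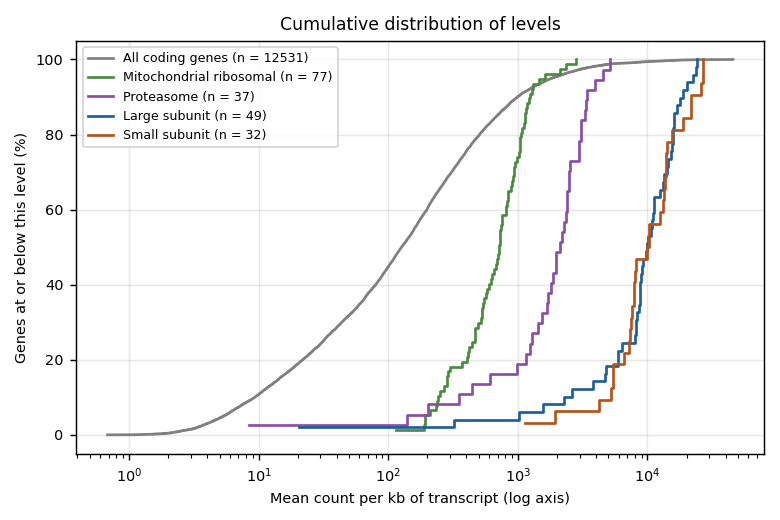
Cumulative distribution of the authors' mean count per kb of principal transcript (log axis, horizontal), as the percent of genes at or below each level (vertical), for all protein-coding genes compared (grey, 12531), the mitochondrial ribosome (green, 77), the proteasome (purple, 37), the large subunit (blue, 49) and the small subunit (orange, 32). The curves of the subunits overlie each other and lie to the right of the other groups, apart from a tail of the large subunit that starts at 20.5.

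The large and small subunits had nearly the same level. The median was 9903 mean counts per kb for the large subunit and 10046 for the small subunit, a ratio of 0.986 or a log2 difference of -0.02. The sign of so small a difference turned with the length by which counts were divided: it was 0.20 with the union of all exons and -0.08 with coding length. Among the 73 genes left after the 8 paralogs were set aside, levels per kb of transcript spanned 23.4-fold, from 1141 to 26711, and the upper quartile was 1.93-fold above the lower one. With the paralogs included, the span was 1305-fold.

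In the large subunit the highest levels per kb of transcript were those of Rpl10 (24088), Rpl36a (23715), Rpl19 (22588), Rpl7a (20195) and Rpl23a (18706). Rpl10 joins the subunit late in its assembly, and Rpl23a lies at the exit of the protein tunnel. The lowest were those of Rpl3l (20.5), Rpl39l (324), Rpl10l (1020), Rpl22l1 (1569) and Rpl7l1 (2256), so that all 5 were paralogs. In the small subunit the highest were Rps12 (26711), Rps2 (26600), Rps4x (25686), Rps18 (21705) and Rps6 (21647), the last being the classical target of the S6 kinases. The lowest were Rps15a (1141), Rps20 (1950), Rps16 (4256), Rps27l (5205) and Rps27 (5420).

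Several low levels per kb depended on the length used. The principal transcript of Rps15a has 5179 bases for a coding length of 390, and per kb of coding sequence the gene stood at 15155, rank 22 of the small subunit. Rps20 had 1950 mean counts per kb of a transcript of 3706 bases and 20248 per kb of coding sequence, rank 13. The shortest principal transcript could hardly change these levels. For Rps15a it has 5130 bases (1152 per kb), and for Rps20 it is the same transcript of 3706 bases (1950 per kb). Rpl18, by contrast, had 3787 per kb of a transcript of 2989 bases and 16672 per kb of the shortest principal transcript of 679 bases. Rpl22 had 2616 per kb of a transcript of 2051 bases and 11319 per kb of one of 474 bases. Which of these transcripts the cells make cannot be read from a sum of counts per gene. In the other direction, Rpl41, with 75 coding bases in a transcript of 582, stood at 15411 per kb of transcript and at 119587 per kb of coding sequence, where it was the highest member. Levels that were low on both scales were those of Rpl3l, Rpl10l, Rpl39l and Rpl22l1, which held the lowest 4 ranks of the large subunit either way. Rps27, with 7421 per kb of coding sequence, was the lowest of the 31 small subunit genes that have a coding length.

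**Figure D2:**
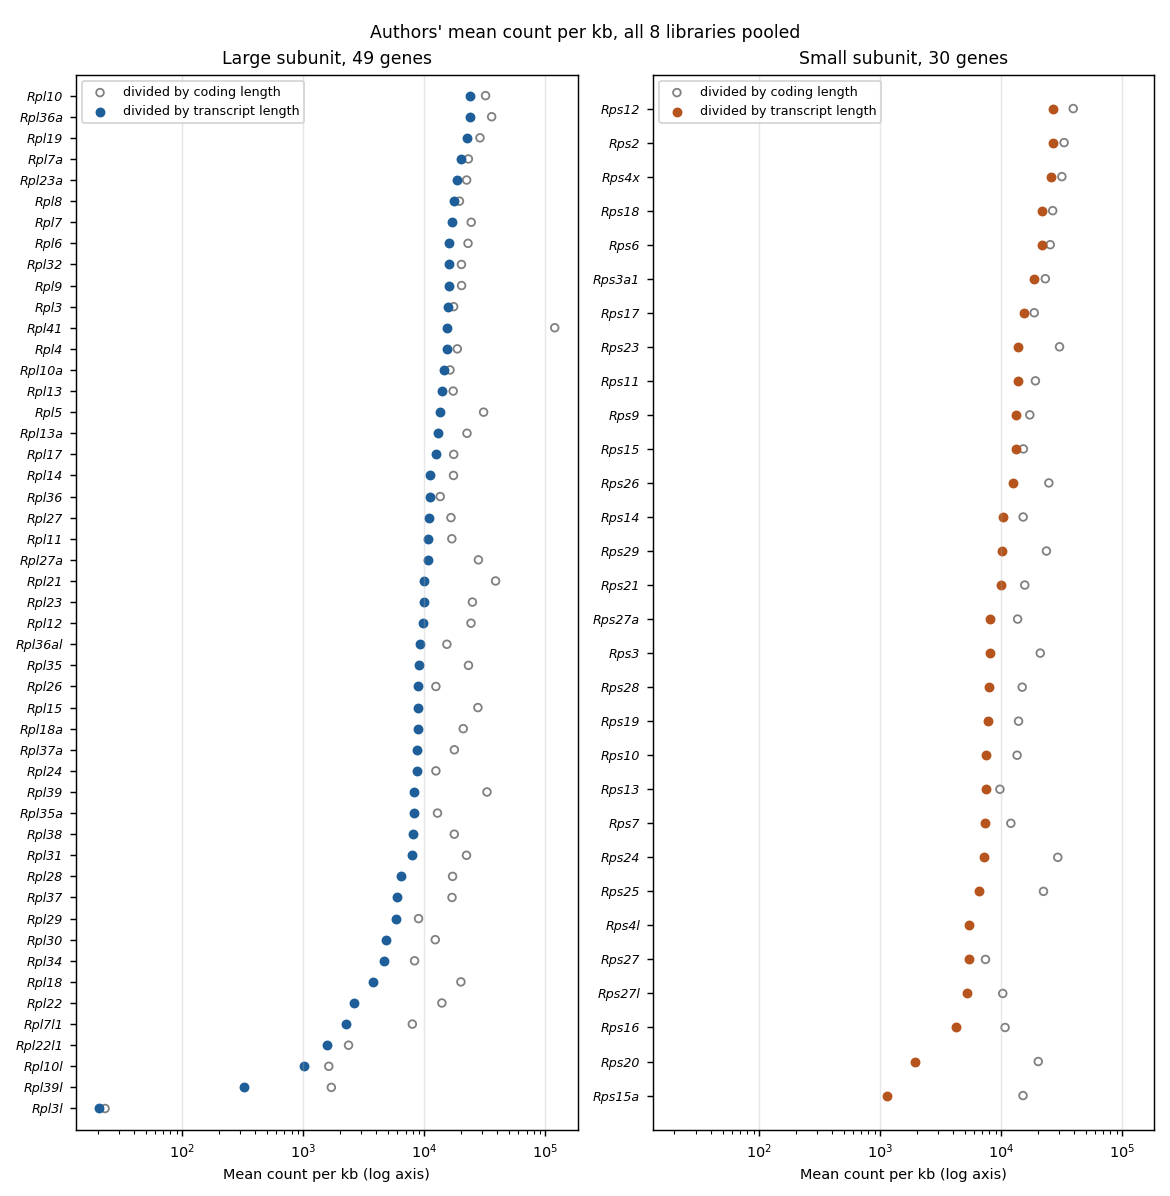
Authors' mean count per kb over all 8 libraries (log axis) for the 49 large subunit genes (left) and 30 of the 32 small subunit genes (right), sorted by the level per kb of transcript (filled points); open points divide by coding length, which Rps4l lacks. Open points lie far from filled points for Rps15a, Rps20, Rpl18, Rpl22 and Rpl41, while Rpl3l, Rpl39l, Rpl10l and Rpl22l1 stay at the bottom on both scales.

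A list of 6 further ribosomal protein genes with names outside the rule was fixed, and their levels lay within the range of the 73 genes other than paralogs. Rplp0, Rplp1 and Rplp2 form the stalk of the large subunit that recruits translation factors, and stood at 16974, 16980 and 5258 mean counts per kb of transcript. Rpsa, of the small subunit, stood at 13375. Fau, which encodes a ribosomal protein fused to a ubiquitin-like protein, stood at 7396. With these 6 genes the ribosomal share of the gene rows was 6.01%.

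Per kb of transcript the main gene of each of the 8 paralog pairs was higher than its paralog, by factors from 1.04 to 764. Rpl3l, known from heart and skeletal muscle, had a mean count of 28.1 against 21121 for Rpl3, a protein close to the catalytic centre of the ribosome. Per kb of transcript it stood at 0.131% of Rpl3, 764-fold lower, with 0.257% for the exon union. It stood at 0.0291% with copied windows, described below, left out of the length only. That measure keeps all counts, so it raises the level of genes with many copied windows. Rpl39l, at 324 per kb, stood at 3.94% of the 8237 per kb of Rpl39, and Rpl10l, at 1020 per kb, at 4.24% of the 24088 per kb of Rpl10. With the exon union they stood at 8.94% and 10.2%, and with copied windows left out of the length Rpl10l stood at 0.981%. Both genes are known for their expression in male germ cells. Rpl7l1, with 2256 per kb, stood at 13.3% of Rpl7 (17005), and the pseudogene Rps4l, with 5444 per kb, at 21.2% of Rps4x (25686). These ratios moved with the length used. Rpl7l1 stood at 22.9% of Rpl7 with the exon union and 32.6% with coding length. Rps4l stood at 35.5% of Rps4x with the union and 12.4% with copied windows left out of the length.

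The other 3 paralogs came closer to their main gene per kb of principal transcript. Rpl36al had 9292 mean counts per kb of transcript, 39.2% of Rpl36a (23715). It stood at 16.2% with the longest coding transcript and 16.7% with copied windows left out of the length. Rpl22l1 had 1569 per kb, 1.67-fold below Rpl22, but this moved with the length used, and Rpl22l1 stood at 13.9% of Rpl22 with the shortest principal transcript, 16.9% per kb of coding sequence, 23.6% with the exon union and 99.6% with copied windows left out of the length. In counts alone, Rpl22l1 had 866 and Rpl22 5365. Rps27l, a gene known to respond to p53, was the only paralog with a higher mean count than its main gene, 2597 against 1870. Per kb of transcript it stood at 96.0% of Rps27, and with coding length or the union of exons it was above Rps27, at 139% and 178%. With copied windows left out of the length it stood at 25.4%. The coding bases of this pair, printed above, carry 60 differences, whereas those of Rps27 are shared in full with another gene, as described next.

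**Figure D3:**
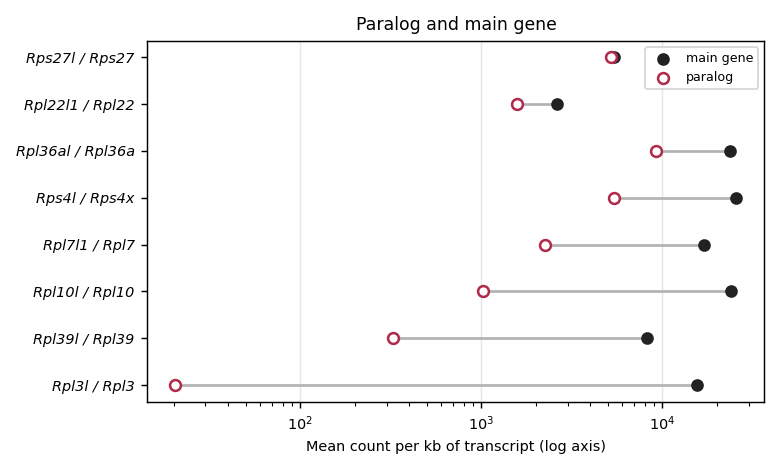
Mean count per kb of transcript (log axis) for 8 paralogs (open) and their main genes (filled), with a line joining each pair, sorted by ratio. The gap is widest for Rpl3l, at 20.5 against 15633 for Rpl3, and all but closed for Rps27l, at 5205 against 5420 for Rps27.

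4 members lie on the X chromosome, Rpl10, Rpl36a, Rpl39 and Rps4x, and each of them is the main gene of a pair whose paralog lies on an autosome. This is 4.94% of the members, against 3.85% of protein-coding genes compared. Rpl10, Rpl36a and Rps4x were among the highest 3 of their subunit per kb of transcript, and Rpl39 stood at 8237. The autosomal paralogs Rpl10l and Rps4l have a single exon and Rpl36al has 2, against 6, 7 and 5 in the X-linked genes. Rpl39l has 3 exons, as Rpl39 does.

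Since the authors kept only reads that were placed once in the genome, the copies of ribosomal protein genes bear on how far each count can be trusted. For each gene the share of its 81-base transcript windows that occur exactly in another annotated gene was computed. The share treats each window alone, whereas the libraries were read as 81-base pairs, so the second read of a pair is not taken into account. The median share was 35.3%, and 76 of the 81 genes had at least 1 such window. In 27 genes (33.3%) the share was 50% or more. Of the 77 mitochondrial ribosomal genes, 23 had any copied window and 1 reached 50%, and of the 37 proteasome genes 9 had any and 0 reached 50%. The highest shares were those of Rps27 (98.5%), Rpl9 (90.3%), Rpl10a (87.5%), Rpl10 (84.8%) and Rpl36a (84.4%). At the other end, Rps3, Rpl10l, Rpl39l and Rpl3l were among the genes with 0 copied windows. Copies of Rpl21, Rpl7a and Rps2 were spread over the largest numbers of other genes, 57, 54 and 46.

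Rps27 is the extreme case. The single-exon gene Rps27rt, at chr9:114982366-114982739, has the same 252 coding bases as Rps27, and 261 of the 265 windows of Rps27 occur in it. The table lists Rps27rt with a mean count of 1827, 97.7% of the 1870 of Rps27, and how reads were divided between these rows is uncertain. Rpl34-ps1, a processed pseudogene at chr6:71124610-71124963, shares 156 of 544 windows with Rpl34 and was listed with 2887, 98.9% of the 2918 of Rpl34. Smaller counts stood beside other members: Rpl14-ps1 had 1556 (13.7% of Rpl14), Rps15a-ps6 had 567 (9.60% of Rps15a) and Rpl31-ps12 had 427 (5.10% of Rpl31). Rps15a-ps4 and Rps19-ps3 had 60.3 and 29.9. Per kb of transcript, Rpl34-ps1 stood at 1.74-fold the level of Rpl34, and Rps15a-ps6 at 1.26-fold the level of Rps15a. The rest of the 7 rows stood below their parent genes on that scale. Both excesses depended on the length of the parent transcript. Per kb of coding sequence Rpl34 stood at 8314 and Rps15a at 15155, against 8156 and 1443 per kb of transcript for Rpl34-ps1 and Rps15a-ps6. These 7 rows were chosen after their values were seen.

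**Figure D4:**
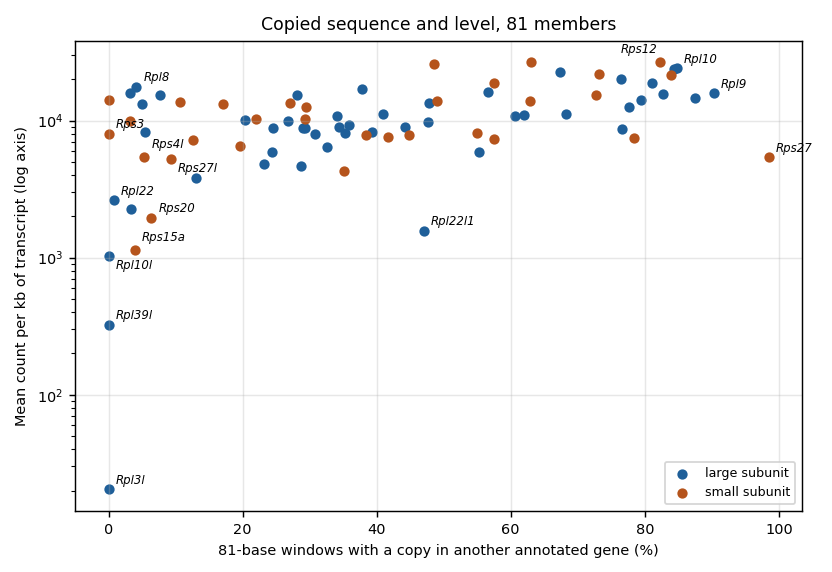
Percent of the 81-base windows of each member found exactly in another annotated gene (horizontal) against its mean count per kb of transcript (log axis, vertical), for the large (blue) and small (orange) subunit. Rps27 is farthest to the right at 98.5%, Rps12, Rpl10 and Rpl9 combine high levels with shares of 82.3, 84.8 and 90.3%, and Rps3 reaches 8038 per kb with no copied window.

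Per kb of transcript, genes with a high share of copied sequence did not have lower levels than those with a low share. Whether reads lost to copies lowered any count was not tested. Over the 73 genes other than paralogs, the 27 with a share of 50% or more had a median of 15385 mean counts per kb of transcript (5420 to 26711), and the 11 with a share under 10% had a median of 9900 (1141 to 17683). The rank correlation of share with level was 0.42 per kb of transcript and 0.01 per kb of coding sequence (Spearman, n = 73 genes, which share the libraries and the lengths in both measures). The mean count itself increased with coding length, with a rank correlation of 0.78 over the same genes.

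The ribosomal protein genes are short. Their principal transcripts had a median of 835 bases, 453 coding bases and 5 exons, against 3015, 1404 and 9 in the protein-coding genes compared, and the median gene spanned 3.24 kb against 24.8 kb. In mitochondrial ribosomal genes the medians were 1288 bases, 576 coding bases and 5 exons, and in proteasome genes 1541, 831 and 9. The last exon had a median of 194 bases, against 1313 in the protein-coding genes compared, 578 in mitochondrial ribosomal genes and 351 in proteasome genes. GC content was alike, at 50.9% and 50.6%. An intron held an annotated small nucleolar RNA, the class of RNAs that guide chemical modification of ribosomal RNA, in 28 of the 81 genes (34.6%), against 1.58% of the protein-coding genes compared and 0 of 77 mitochondrial ribosomal genes. Rpl4 held 5 of them and Rpl13a held 4.

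Because the study removes METTL3, the sequence features with which m6A is known to go were also counted. The mark lies mostly in long internal exons and in last exons, at motifs of which GGACT is the form used most. An internal exon of at least 400 bases occurred in 1 of the 81 genes (1.23%), against 19.5% of the protein-coding genes compared and 2 of 77 mitochondrial ribosomal genes. The exception, Rpl18, has an exon of 1992 bases in the transcript taken here, whose shortest principal alternative has only 679 bases in all. The longest internal exon had a median of 152.5 bases in the members, 162 in the mitochondrial group and 217 in protein-coding genes. In 33 of the 81 genes (40.7%) the transcript, searched on its own strand, held no GGACT, as in Rpl10, Rpl36a, Rpl19, Rps4x, Rps18 and Rps27. The same was true of 7.83% of the protein-coding genes, whose transcripts are longer, of 16 of 77 mitochondrial ribosomal genes (20.8%) and of 6 of 37 proteasome genes (16.2%). Per kb the motif was about as frequent, with medians of 0.904 and 1.06. Rps15a and Rps20, the small subunit genes with the longest transcripts, held 5 each, or 0.965 and 1.35 per kb. Their annotated last exons have 4822 and 3350 bases, and whether the cells make these transcripts cannot be read from counts per gene. m6A itself was not measured in these libraries.

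**Figure D5:**
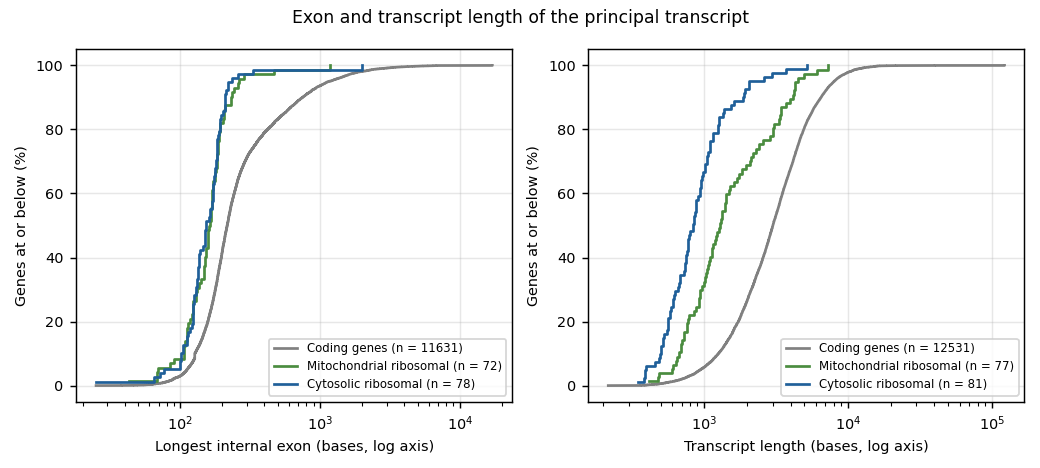
Cumulative distribution of the longest internal exon (left) and of transcript length (right), both in bases on log axes, as the percent of genes at or below each length, for protein-coding genes compared (grey), mitochondrial ribosomal genes (green) and the members (blue). The longest internal exon of members has a median of 152.5 bases and passes 400 in 1 gene, and the median transcript has 835 bases against 3015 for protein-coding genes.

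Starts of transcription were read for the 61 members with an entry in RefSeq (GRCm38). Where RefSeq listed several starts for a gene, the longest tract and the longest run among them were taken. A cytidine followed by at least 4 pyrimidines stood exactly at an annotated start in 12 of them (19.7%). Of the 10111 genes, protein-coding or not, that reach the minimum and have an entry, 3.07% had such a start. None was found in 68 mitochondrial ribosomal and 30 proteasome genes. The 12 genes were Rpl14, Rpl15, Rpl28, Rpl35, Rpl35a, Rpl38, Rps6, Rps10, Rps15a, Rps18, Rps21 and Rps27. With the first base of the GENCODE principal transcript the count was 9 of 81 (11.1%), against 2.30% of the protein-coding genes compared, 4 of 77 mitochondrial ribosomal genes (5.19%) and 0 of 37 proteasome genes. Rps21 alone had the tract at both starts, so which members carry it depended on the annotation. Within 25 bases to either side of the RefSeq start, the longest run of pyrimidines had a median of 8 bases in members and 5 in those 10111 genes. A run of at least 10 was present in 23 members (37.7%), against 11.6% of the 10111 genes. Below are 30 bases around the start, 10 before it and 20 from it, for 8 genes with the tract, which is in capitals, and for Rps27l, which has none at that base. Several of these RefSeq starts lie inside the span that GENCODE gives the gene.
Rps6, chr4:86857348-86857377 (- strand): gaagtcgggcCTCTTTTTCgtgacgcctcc
Rps18, chr17:33955646-33955675 (- strand): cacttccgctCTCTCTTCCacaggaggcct
Rps10, chr17:27635225-27635254 (- strand): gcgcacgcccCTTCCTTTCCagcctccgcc
Rps27, chr3:90213629-90213658 (- strand): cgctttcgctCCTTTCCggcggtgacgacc
Rpl15, chr14:18270967-18270996 (- strand): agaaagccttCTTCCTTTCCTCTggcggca
Rpl14, chr9:120571507-120571536 (+ strand): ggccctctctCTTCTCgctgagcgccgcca
Rpl35, chr2:39005112-39005141 (- strand): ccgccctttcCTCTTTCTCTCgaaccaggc
Rpl28, chr7:4792955-4792984 (+ strand): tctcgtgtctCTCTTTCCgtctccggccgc
Rps27l, chr9:66946076-66946105 (+ strand): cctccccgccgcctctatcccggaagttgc

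The tract had 13 bases in Rpl15, 11 in Rpl35 and 6 in Rpl14. Thus Rps27 begins with the tract at its RefSeq start. In its paralog Rps27l that start is a g, and a cytidine followed by 4 pyrimidines (cctct) begins at the next base. The absence of the tract in Rps27l thus rests on the exact base annotated. At the GENCODE principal starts neither gene has the tract. Among genes with the tract at the RefSeq start, Rps6, Rps18 and Rps27 had 21647, 21705 and 5420 mean counts per kb of transcript.

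The labelled cell type was checked against fixed markers. The 10 pluripotency genes had mean counts from 1019 (Utf1) to 11934 (Pou5f1) and summed to 0.439% of the gene rows. The 10 fibroblast markers had mean counts from 1.45 (Lum) to 345 (Tagln) and summed to 0.00612%, with Col1a1 at 19.8 and Col1a2 at 13.8. Mettl3 itself, whose protein and not its gene is removed, had a mean count of 684. No depth per library is given in the table.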

How the data were processed

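RNA of 8 libraries was prepared with a stranded total RNA kit and sequenced as 81-base pairs. The labels' extraction text describes chromatin RNA, whereas their molecule field and the study's methods give total RNA, as which the values were treated. The authors removed ribosomal RNA reads with bowtie2, aligned the rest with STAR to mm10 with strain variants masked, kept uniquely placed reads, removed duplicates with Picard and counted genes and transposable elements with TEtranscripts at its defaults. Whether counting used strand is uncertain, so genes that overlap on opposite strands are too. The authors deposited 1 table, and the signal column used here is the mean over all libraries of counts divided by size factors. The other 5 deposited columns hold the authors' own comparison (fold change, its error, statistic, p and adjusted p) and were not used, so no test was made and no difference between the groups is given.

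Lengths, exons and positions came from GENCODE release M21 (mm10), which matched all 81 members by symbol. The principal transcript was the one ranked first by APPRIS, then by support level, then the longest. Exact copies were searched in all annotated transcripts of other genes, pseudogenes included and on both strands, in 81-base windows, and not in the genome sequence, which was not used here. The search was tested on simulated sequences with planted copies. Where copied windows were left out of a length, their number was subtracted from it and all counts of the gene were kept. Coding sequences of pairs were aligned with Biopython 1.88 (match 2, mismatch -1, gap opening -5, extension -1). Sequences around starts came from the RefSeq promoter table, and coding sequences from GENCODE. Python 3.11.15, pandas 2.3.3 and scipy 1.17.1 were used.

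The members and lists were chosen with earlier results of these data known. Genes named are the 5 highest and 5 lowest levels per kb in each subunit, the 8 paralog pairs, the 5 highest shares of copied windows, the 5 lowest mean counts, 6 listed ribosomal genes outside the name rule, fixed markers and Mettl3; others named, among them the highest mean counts, the genes with tracts, small nucleolar RNAs or long transcripts and the rows named as copies, were chosen after their values were seen. Other lengths, minimums, member sets, backgrounds and window sizes were tried as alternatives, and the shortest principal transcript among ties was added after seeing the data. Depth per library is unknown, and no interval was given. Values of some single genes are not reported here.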

Additional observations from a re-analysis of the deposited data

How the results depend on the processing

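The log2 difference between the medians of large and small subunit, -0.02 per kb of principal transcript, was 0.20 with the exon union, 0.10 with the longest coding transcript, -0.083 with coding length, -0.076 with copied windows left out of the length, 0.036 with the shortest principal transcript, -0.011 with a mean count of at least 100, 0.078 without the 8 paralogs and -0.0013 with 6 listed ribosomal genes outside the name rule. The members' share of counts was 6.01% with those 6 genes and 4.91% with transposable elements in the denominator. The fold of the members' median over protein-coding genes was 57.2 with the exon union, 73.4 with the longest coding transcript, 68.4 with coding length and 84.7 with the shortest principal transcript. Rps27l stood at 178%, 111% and 139% of Rps27 with the exon union, the longest coding transcript and coding length, above its main gene in all 3. It stood at 25.4% with copied windows left out of the length. Protein-coding genes without GGACT made up 7.20% with the longest coding transcript and 8.73% at a mean count of at least 1000, where 18.4% had an internal exon of at least 400 bases. The median share of copied windows was 43.2% with 50-base and 49.8% with 31-base windows. No paired analysis was possible because the table holds no value per library. Leaving out a replicate was not possible for the same reason.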
